A study of Rattus norvegicus with 20 samples.

Results

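Arms of the miR-34 and miR-449 microRNA families were followed in meiotic and haploid rat germ cells after exposure of the males to cyclophosphamide or to saline. The 7 members are the array features named rno-miR-34a-5p, rno-miR-34b-5p, rno-miR-34b-3p, rno-miR-34c-5p, rno-miR-34c-3p, rno-miR-449a-5p and rno-miR-449a-3p, taken by name from the 677 rat miRNAs on the array. Sprague-Dawley males were gavaged with cyclophosphamide, an alkylating anticancer drug, at 6 mg/kg, or with saline, on 6 days of each week for 4 weeks, and no group carried a genetic change. Pachytene spermatocytes, in the prophase of meiosis, and round spermatids, the haploid cells that follow, were separated by sedimentation at unit gravity, which enriches cells by size and does not select them by a marker. There were 4 groups of 5 one-colour arrays, 1 for each combination of treatment and cell type, each array carrying the number of a rat. Of the cyclophosphamide pachytene arrays, 2 carry the number 16 with different years, and these animals are named earlier 16 and later 16. Spread between arrays is spread between rats only if these numbers mark separate animals, which bears on every p-value.

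A miRNA hairpin is cut into a duplex, and the strand from its left or right side (the 5p or 3p arm) is loaded into Argonaute, while the other is mostly degraded. Bases 2 to 8 of the loaded strand, the seed, pair with target messages. The miR-34a gene is a direct transcriptional target of p53, the factor activated by DNA damage. The miR-34b/c and miR-449 genes are known for high expression in meiotic and postmeiotic male germ cells and in ciliated epithelia, and their loss together in mice disturbs spermatogenesis and cilia. Calling these the germ-cell arms is a label that does not exclude control by p53, which was not tested.

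The mature sequences below, from RefSeq (GRCr8, which listed all 7 members), are shown because the seed, in capitals, sets the grouping used for the results.
rno-miR-34a-5p: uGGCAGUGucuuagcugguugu
rno-miR-34b-5p: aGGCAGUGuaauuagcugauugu
rno-miR-34c-5p: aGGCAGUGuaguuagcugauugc
rno-miR-449a-5p: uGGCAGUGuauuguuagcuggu
rno-miR-34b-3p: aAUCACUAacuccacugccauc
rno-miR-34c-3p: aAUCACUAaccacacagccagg
rno-miR-449a-3p: cAGCUAACaugcaacugcucuc
The 4 left-hand (5p) arms share the seed GGCAGUG, which 5 of the 693 rat mature miRNAs in the RefSeq table carry, the remaining carrier being miR-449c-5p. The 3p arms of miR-34b and miR-34c share the seed AUCACUA with no other entry of that table. Only miR-449a-3p carries the seed AGCUAAC there. Counted from the 5′ end, miR-34b-5p and miR-34c-5p have the same base at 21 of 23 positions, against 15 of 22 for miR-34a-5p and miR-449a-5p. The 3p arms of miR-34b and miR-34c have the same base at 17 of 22 positions. Probe sequences were not used here, so how far the probes for miR-34b-5p and miR-34c-5p tell these arms apart was not tested. On GRCr8 the miR-34b and miR-34c hairpins lie on the minus strand of chromosome 8, at chr8:60306609-60306692 and chr8:60306091-60306167, with 441 bases between them. The miR-34a hairpin lies at chr5:165815952-165816053 and the miR-449a hairpin at chr2:46403910-46404000, both on the plus strand.

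All values are log2 signals of the brightest probe of each arm, scaled between arrays, with a floor of 3.61. Signals of different probes cannot be ranked against each other, so each arm was compared between groups and pairs of arms only through their within-array ratio. Between 181 and 281 miRNAs were detected on an array, and the test took the 217 miRNAs that some group showed on each of its 5 arrays, all 7 members among them. Differences were fitted with limma over these 217, with 16 residual degrees of freedom, and a call means an adjusted p under 0.05. As scaling sets values relative to the bulk of miRNAs in the sample, more RNA of 1 arm per cell and fewer cells lacking it cannot be told apart in these bulk preparations. The array features of 6 members were detected on all 20 arrays. The exception, miR-449a-3p, was detected on 5 of 5 arrays in each pachytene group and on 0 of 5 in each round spermatid group.

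**Figure D1:**
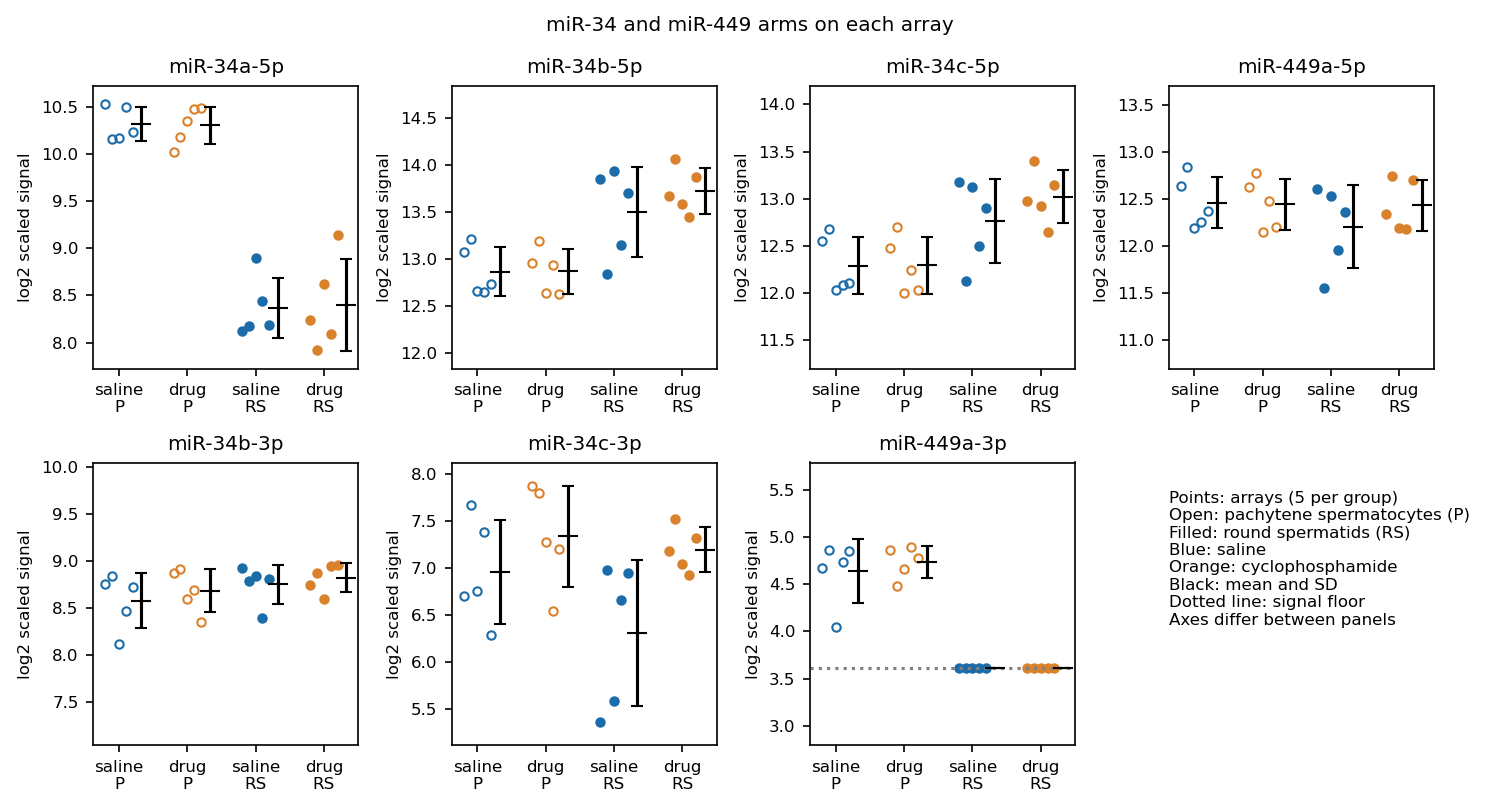
Log2 scaled signal (y axes, which differ in position between panels) of the 7 arms on each of 20 arrays, by group (P, pachytene spermatocytes; RS, round spermatids; drug, cyclophosphamide), with mean and SD in black (n = 5). The miR-34a-5p points lie lower in round spermatids, between 7.92 and 9.14, than in pachytene spermatocytes, between 10.03 and 10.54, and miR-449a-3p sits at the floor of 3.61 in all round spermatid arrays.

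Slide 3, scanned on a date of its own, held 3 saline and 1 cyclophosphamide round spermatid arrays and no pachytene array. For those arrays stage cannot be told apart from slide and scan date, and the main fit pooled them with the others. Slides 1 and 2 each held 1 saline round spermatid array, and slide 2 held 1 of cyclophosphamide, so stage values within them rest on few arrays. Round spermatids were first compared with pachytene spermatocytes in saline rats. Among the members, 1 was called higher and 2 were called lower, and over all tested miRNAs 26.3% were called higher and 21.7% lower. The median difference was -0.26 over the 7 members and 0.02 over all 217. In cyclophosphamide rats 2 members were called higher and 2 lower, against 30.4% and 22.6% of all tested miRNAs. There the median was -0.01 over the members and 0.06 over all. In both treatments miR-449a-3p was among the members called lower, tested through its pachytene detection and held at the floor in round spermatids.

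A p53-responsive arm, miR-34a-5p, fell between the stages. Its signal in saline pachytene spermatocytes was 10.54, 10.17, 10.17, 10.50 and 10.24 in rats 13, 16, 25, 26 and 28. In saline round spermatids it was 8.13, 8.17, 8.90, 8.45 and 8.19 in rats 15, 16, 17, 25 and 28. The groups did not overlap, and the gap between the nearest arrays was larger than either group's SD (0.18 and 0.32). Here and below, non-overlap only describes the arrays, as its share over all tested miRNAs is not given. The difference was -1.96 ± 0.19 (SE, n = 5 against 5, limma adjusted p = 1.14e-07), which is 3.88-fold lower in round spermatids (95% interval 2.93 to 5.14).

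Cyclophosphamide rats gave a like value for miR-34a-5p. Pachytene signals were 10.03, 10.18, 10.35, 10.48 and 10.49 in rats 7, 15, earlier 16, later 16 and 29. Round spermatid signals were 8.24, 7.92, 8.62, 8.09 and 9.14 in rats 14, 15, 16, 25 and 26. Again every round spermatid array lay lower than every pachytene array. The difference was -1.91 ± 0.19 (limma adjusted p = 1.30e-07), or 3.75-fold lower (2.83 to 4.96). Under the 5 scalings run, the difference of miR-34a-5p was -3.20 to -1.96 in saline rats and -2.61 to -1.91 in cyclophosphamide rats. Relative to the median of all tested miRNAs it was -2.16 to -1.98 and -2.14 to -1.97. Its other probe gave -1.98 and -1.97. The order of the 4 groups was saline pachytene (10.32 ± 0.18, SD), cyclophosphamide pachytene (10.31 ± 0.20), cyclophosphamide round spermatids (8.40 ± 0.49) and saline round spermatids (8.37 ± 0.32), and neighbours within a cell type did not differ beyond their SD.

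The germ-cell arm miR-34b-5p went the other way relative to the other miRNAs. Saline pachytene signals were 13.08, 13.21, 12.66, 12.66 and 12.73 in rats 13, 16, 25, 26 and 28. Saline round spermatid signals were 13.85, 12.84, 13.94, 13.15 and 13.70 in rats 15, 16, 17, 25 and 28. Rats 16 and 25 of the round spermatid group lay within the pachytene range, so these groups overlapped. The arm was called higher by 0.63 ± 0.19 (limma adjusted p = 0.0107), 1.55-fold (1.17 to 2.04), but its sign depended on scaling: -0.61 when arrays were scaled to the labelling spike-ins, where the median of all tested miRNAs moved to -1.03. The spike-in factors of saline round spermatid arrays were 1.91, 1.47 and 1.55 on slide 3, which held no pachytene array. They were 0.98 on slide 1 and 1.01 on slide 2, and 0.63 to 0.89 in saline pachytene arrays. What moved them was not tested. The call for miR-34b-5p was also lost with scaling over all spots (0.39, adjusted p = 0.126), without scaling (0.15, 0.723) and with normexp background correction (0.43, 0.198). It was lost with the scan date as a block (0.50, 0.0823). Within slides 1 and 2, each with 1 saline round spermatid array, the difference was 0.71 and 0.16.

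In cyclophosphamide rats, miR-34b-5p was 12.96, 13.20, 12.64, 12.94 and 12.63 in pachytene spermatocytes of rats 7, 15, earlier 16, later 16 and 29. It was 13.67, 14.07, 13.59, 13.44 and 13.87 in round spermatids of rats 14, 15, 16, 25 and 26. Here the groups did not overlap. The arm was higher by 0.85 ± 0.19 (limma adjusted p = 0.000985), 1.81-fold (1.37 to 2.39). It stayed called within slide 1 (0.70, adjusted p = 0.0110), with 3 round spermatid arrays, and was 0.71 within slide 2, with 1. However, it was 0.15 (adjusted p = 0.656) with spike-in scaling and 0.45 (adjusted p = 0.317) without scaling. Relative to the median of all tested miRNAs, its difference was 0.42 to 0.61 in saline rats and 0.64 to 0.79 in cyclophosphamide rats over the 4 scalings that gave a value.

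Its cluster partner miR-34c-5p had signals of 12.55, 12.68, 12.03, 12.09 and 12.11 in saline pachytene spermatocytes, rats ordered as above. Its saline round spermatid signals were 13.17, 12.12, 13.13, 12.49 and 12.90, with rats 16 and 25 again within the pachytene range. The difference of 0.47 ± 0.20 in saline rats was not called (limma adjusted p = 0.0598), and it turned to -0.77 (adjusted p = 0.0237) with spike-in scaling and to -0.00064 without scaling. Leaving out an array changed that call 4 times: it was 0.54 (adjusted p = 0.0494) without saline pachytene rat 13, 0.57 (0.0318) without rat 16 of that group, 0.63 (0.00895) without round spermatid rat 16 and 0.54 (0.0478) without round spermatid rat 25. It was also called higher with array weights (0.66, adjusted p = 0.00157) and with the mean of all probes (0.44, 0.0491). With slide as a block it was 0.27 (limma adjusted p = 0.130) and with scan date as a block 0.37 (0.225), neither called. It was 0.56 within slide 1 and 0.05 within slide 2, each with 1 saline round spermatid array. In cyclophosphamide rats the pachytene signals ran from 11.99 through a median of 12.25 to 12.70 and the round spermatid signals from 12.65 through 12.98 to 13.40, so the lowest round spermatid array lay just below the highest pachytene array. That difference of 0.73 ± 0.20 was called (limma adjusted p = 0.00561), 1.66-fold higher (1.23 to 2.22), but the call was lost under each of the 4 other scalings: over all spots (0.52, adjusted p = 0.0514), none (0.32, 0.480), quantile (0.19, 0.0608) and spike-in (0.03, 0.941). Quantile normalization sets signals by rank, which leaves the brightest arms few values: it gave miR-34c-5p 0.19 ± 0.08 in both treatments. The difference in cyclophosphamide rats stayed called with slide as a block (0.51, limma adjusted p = 0.00285) and scan date as a block (0.69, 0.00907). It was 0.51 within slide 1 and 0.55 within slide 2.

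The third germ-cell arm, miR-449a-5p, is made from an intron of the Cdc20b gene. It was 12.64, 12.84, 12.19, 12.26 and 12.37 in saline pachytene spermatocytes and 12.60, 11.55, 12.53, 11.96 and 12.37 in saline round spermatids. The groups overlapped widely, and the difference of -0.26 ± 0.19 was not called (limma adjusted p = 0.296). In cyclophosphamide rats the means were 12.44 ± 0.27 and 12.43 ± 0.27 (SD), a difference of -0.01 with a 95% interval from -0.42 to 0.39 (limma adjusted p = 0.949). The other probe of miR-449a-5p, well above background in all spots, gave -0.33 in saline and -0.32 in cyclophosphamide rats. The probes thus differed for cyclophosphamide rats, and that probe was not tested by itself. A call for a lower level of miR-449a-5p in saline round spermatids appeared with slide as a block (-0.49, adjusted p = 0.0178), scaling over all spots (-0.50, 0.0497), quantile normalization (-0.66, 1.96e-07) and spike-in scaling (-1.50, 0.000146). In cyclophosphamide rats it appeared under the latter 2 (-0.50, 4.48e-06, and -0.72, 0.0475). Under quantile normalization, which sets signals by rank, the SE was 0.07 in each treatment, against 0.19 in the main fit. Its p-values therefore cannot be read like those of the other settings. Within slide 2, with 1 saline round spermatid array, the saline difference of miR-449a-5p was -0.72.

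**Figure D2:**
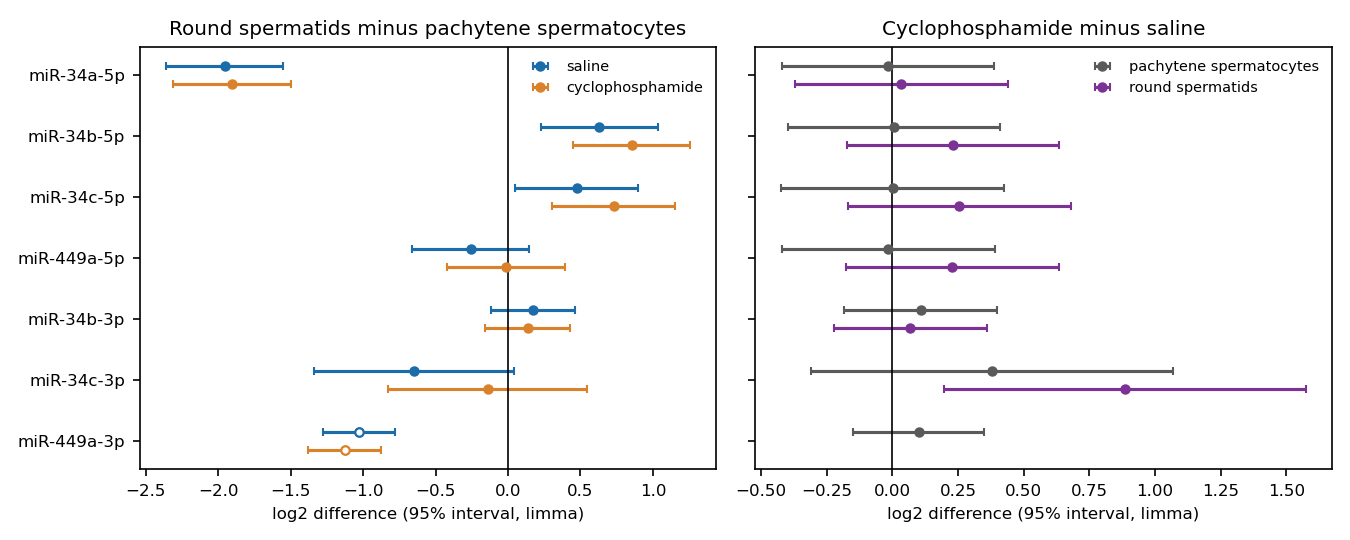
Log2 difference of each arm with its 95% interval from limma (x axes, which differ in range), for round spermatids minus pachytene spermatocytes in each treatment (left) and cyclophosphamide minus saline in each cell type (right). Open symbols mark miR-449a-3p, whose round spermatid level is the floor. The stage difference of miR-34a-5p is -1.96 and -1.91 and that of miR-34b-5p 0.63 and 0.85, the latter turning to -0.61 in saline rats with spike-in scaling.

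Among the 3p arms, miR-34b-3p was not called in either treatment. It ran from 8.12 through a median of 8.72 to 8.84 in saline pachytene spermatocytes and from 8.40 through 8.80 to 8.92 in saline round spermatids. The stage difference was 0.17 ± 0.14 in saline rats (limma adjusted p = 0.319) and 0.13 ± 0.14 in cyclophosphamide rats (adjusted p = 0.422). The groups overlapped in both treatments, and the sign changed with scaling. With spike-in scaling miR-34b-3p was called lower in saline rats (-1.07, adjusted p = 0.000922).

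The 3p arm of miR-449a, miR-449a-3p, was detected in pachytene spermatocytes and not in round spermatids. Saline pachytene signals were 4.67, 4.87, 4.05, 4.74 and 4.86 in rats 13, 16, 25, 26 and 28, and cyclophosphamide pachytene signals ran from 4.48 through 4.78 to 4.90. As no round spermatid array detected it, only a bound is given, for which each round spermatid array was given its weakest signal still well above background, or the arm's own signal where that was stronger. The level in pachytene spermatocytes was at least 1.71-fold higher in saline rats and at least 1.72-fold higher in cyclophosphamide rats. The arm entered the test through the pachytene groups alone. Its round spermatid values are all the floor, so a p-value measures no spread there and its calls are no support. Fitted against the floor, the differences were -1.03 and -1.13, both called by limma. With normexp, which starts from median spot signals and adds an offset of 50, they were 0.16 and -0.51, neither called. Within slide 2, with 1 saline round spermatid array, the saline difference was -0.94. No drug difference can be given in round spermatids, and the arm's other probe was at the floor on all 20 arrays. Spots of that probe flagged well above background were 9 of 47 in saline pachytene spermatocytes, all of rat 26, and 3 of 49 in cyclophosphamide pachytene spermatocytes.

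The member with the highest SD within a group (0.77) was miR-34c-3p. Its saline pachytene signals were 6.70, 7.67, 6.76, 7.38 and 6.29 in rats 13, 16, 25, 26 and 28. Its saline round spermatid signals were 5.37, 6.98, 5.59, 6.67 and 6.95 in rats 15, 16, 17, 25 and 28. Rats 15 and 17 thus lay more than 1 log2 unit below the others of their group. The stage difference was -0.65 ± 0.33 in saline rats (limma adjusted p = 0.114) and -0.14 ± 0.33 in cyclophosphamide rats (adjusted p = 0.729), where signals ran from 6.54 to 7.87 in pachytene spermatocytes and from 6.92 to 7.52 in round spermatids. The saline difference of miR-34c-3p was called under 3 other scalings, over all spots (-0.89, adjusted p = 0.0233), none (-1.12, 0.0224) and to the spike-ins (-1.89, 0.000162). It was -1.82 within slide 1 and 0.17 within slide 2, each with 1 saline round spermatid array.

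Ratios of arms on the same array do not depend on scaling between arrays. For each of 8 ratios, groups were tested by exact permutation of the arrays (two-sided, all splits of 5 against 5), which can give no p below 0.00794. Adjustment was over 29 tests, 8 of them (miR-449a-5p over miR-34b-5p and over miR-34c-5p) added after the values had been seen. Of the 14 stage tests 12 passed, all stage tests of the added ratios among them, and of the 15 drug tests 0. As passes of the added ratios enter the adjustment, they lower the adjusted p of the other ratios that passed. Ratios are given below as log2 values with the saline pachytene mean set to 0.

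The ratio of miR-34a-5p to miR-34b-5p ran from -0.50 to 0.39 in saline pachytene spermatocytes and from -3.18 to -2.13 in saline round spermatids. With cyclophosphamide it ran from -0.47 to 0.40 and from -3.60 to -2.18. The cell types did not overlap. The stage difference was -2.58 in saline rats and -2.76 in cyclophosphamide rats (exact permutation p = 0.00794 and adjusted p = 0.0192 in each). Against miR-34c-5p the fall of miR-34a-5p was -2.43 and -2.63, and against miR-449a-5p it was -1.70 and -1.89, each with the same exact p. Slides 1 and 2 each held all 4 groups, but with 1 saline round spermatid array each and, on slide 2, 1 of cyclophosphamide. Within them these stage differences kept their sign: -2.93 and -2.29 in saline rats and -2.54 and -3.06 in cyclophosphamide rats for miR-34a-5p over miR-34b-5p. Among the arms printed above with the seed GGCAGUG, the ratio of miR-34a-5p to each of the others was thus lower in round spermatids than in pachytene spermatocytes.

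The germ-cell arms also parted from each other. The ratio of miR-449a-5p to miR-34b-5p ran from -0.06 to 0.05 in saline pachytene spermatocytes and from -1.002 to -0.78 in saline round spermatids, with no overlap. The stage difference was -0.89 in saline rats and -0.87 in cyclophosphamide rats. Against miR-34c-5p it was -0.73 and -0.74. Both ratios were added after the values had been seen, so that they passed the test is no support, and they are given as a description. The ratio spread little between rats: the SD of miR-449a-5p over miR-34b-5p within a group was 0.05 to 0.09, whereas the SD of miR-449a-5p alone was 0.27 to 0.44 and that of miR-34b-5p alone 0.24 to 0.48. In saline round spermatids the ratio of miR-449a-5p to miR-34c-5p had an SD of 0.03. On their brightest probes, array to array deviations of the germ-cell 5p arms thus ran largely in parallel, while those arms share arrays, slides and a scaling factor. The other probe of miR-449a-5p read 10.86, 11.03, 10.94, 11.10 and 11.27 in saline pachytene rats 13, 16, 25, 26 and 28. The brightest read 12.64, 12.84, 12.19, 12.26 and 12.37 there. Such parallel deviations were not particular to these arms: Pearson's r within groups with miR-34c-5p was 0.975 for miR-449a-5p and 0.964 for miR-16-5p.

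**Figure D3:**
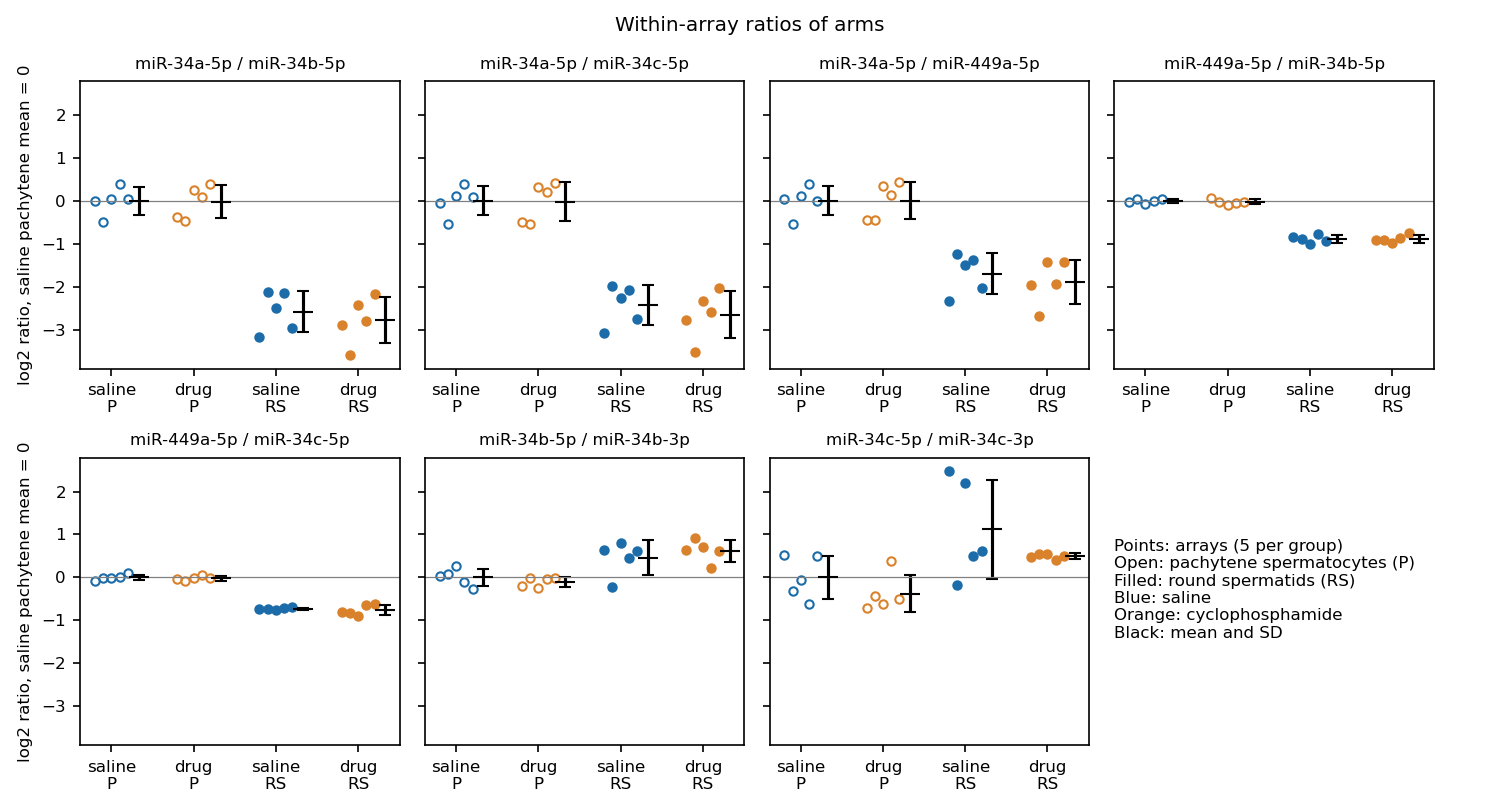
Within-array log2 ratios of arms (y axis, saline pachytene mean set to 0) on each of 20 arrays by group (P, pachytene spermatocytes; RS, round spermatids; drug, cyclophosphamide), with mean and SD in black (n = 5). Ratios of miR-34a-5p to miR-34b-5p lie between -3.60 and -2.13 in round spermatids, those of miR-449a-5p to miR-34b-5p between -1.002 and -0.76, and the ratio of miR-34c-5p to miR-34c-3p spreads from -0.18 to 2.48 in saline round spermatids.

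The ratio of the 5p to the 3p arm was compared next. For miR-34b it ran from -0.28 to 0.26 in saline pachytene spermatocytes and from -0.23 to 0.81 in saline round spermatids, where rat 16 alone lay below 0. The stage difference was 0.45 in saline rats (exact permutation p = 0.0556, adjusted p = 0.124). It passed in cyclophosphamide rats, where the groups ran from -0.24 to -0.01 and from 0.21 to 0.91 (0.72, exact permutation p = 0.00794, adjusted p = 0.0192). Within slides the difference was 0.58 and -0.19 in saline rats and 0.86 and 0.31 in cyclophosphamide rats for slides 1 and 2. Without saline round spermatid rat 16 the saline difference was 0.63 (adjusted p = 0.0177).

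For miR-34c the 5p to 3p ratio ran from -0.62 to 0.52 in saline pachytene spermatocytes and from -0.18 to 2.48 in saline round spermatids. The stage difference of 1.12 in saline rats did not pass (exact permutation p = 0.0873, adjusted p = 0.181), and it was 2.38 within slide 1 and -0.12 within slide 2. In cyclophosphamide rats the ratio ran from -0.72 to 0.37 in pachytene spermatocytes and from 0.39 to 0.55 in round spermatids, a difference of 0.87 (exact permutation p = 0.00794, adjusted p = 0.0192), with 1.098 within slide 1 and 0.64 within slide 2. Without saline round spermatid rat 16 the saline value was 1.45 (adjusted p = 0.0329). For miR-449a no stage test of the ratio was made, since its 3p arm lay at the floor in round spermatids.

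Cyclophosphamide was then compared with saline within each cell type, the question the series was designed for. No member was called in pachytene spermatocytes, in round spermatids or for the difference between them, and neither was any other tested miRNA (0% of 217 in each, limma), with 1, 7 and 1 of the 217 at an unadjusted p under 0.05. The member medians were 0.01, 0.23 and 0.23, and those over all 217 were 0.01, 0.04 and 0.02.

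An arm whose gene p53 activates, miR-34a-5p, was 10.32 ± 0.18 in saline and 10.31 ± 0.20 in cyclophosphamide pachytene spermatocytes (SD, n = 5). The difference was -0.02 with a 95% interval from -0.42 to 0.39. In round spermatids it was 8.37 ± 0.32 and 8.40 ± 0.49, a difference of 0.03 with an interval from -0.37 to 0.44. The groups overlapped in both cell types. In round spermatids the value moved with slide: it was 0.28 ± 0.17 with slide as a block, 0.27 ± 0.17 with scan date as a block, and 0.13, -0.08 and 0.63 within slides 1, 2 and 3, none of them called. The ratios of miR-34a-5p to miR-34b-5p, to miR-34c-5p and to miR-449a-5p differed between treatments by -0.02, -0.02 and 0.00016 in pachytene spermatocytes and by -0.20, -0.22 and -0.19 in round spermatids, with exact permutation p from 0.516 to 1.

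The 3 germ-cell 5p arms showed differences of 0.01 (miR-34b-5p), 0.0012 (miR-34c-5p) and -0.02 (miR-449a-5p) in pachytene spermatocytes, with 95% intervals within -0.42 to 0.43. In round spermatids the differences were 0.23 ± 0.19, 0.26 ± 0.20 and 0.23 ± 0.19 (limma adjusted p = 0.840 for each). Within slide 1 these 3 values were -0.08, -0.07 and -0.18, and within slide 2, with 1 array a group, 0.60, 0.52 and 0.62. The lowest saline array of all 3 arms was that of rat 16, on slide 2. The other probe of miR-449a-5p gave a drug difference of 0.09 in round spermatids and 0.07 in pachytene spermatocytes. The stage differences of miR-34b-5p and miR-34c-5p differed between treatments by 0.23 (95% interval -0.34 to 0.80) and 0.25 (-0.35 to 0.85), neither called (limma adjusted p = 0.993 for each).

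In pachytene spermatocytes miR-34b-3p differed between treatments by 0.11 ± 0.14 and miR-449a-3p by 0.10 ± 0.12, and miR-34b-3p by 0.07 ± 0.14 in round spermatids. None of these was called, and the groups overlapped.

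The member with the largest fitted difference between treatments was miR-34c-3p in round spermatids. Cyclophosphamide signals were 7.18, 7.52, 7.04, 6.92 and 7.32 in rats 14, 15, 16, 25 and 26, against the saline signals of 5.37 to 6.98 given above. Saline rats 16 and 28 lay within the cyclophosphamide range, and rats 15, 17 and 25 below it. The difference was 0.89 ± 0.33 (SE), 1.85-fold with a 95% interval from 1.15 to 2.98. Its unadjusted p was 0.0144 and its adjusted p 0.840 (limma), so it was not called. Leaving out each array in turn gave 0.65 to 1.05. In pachytene spermatocytes the difference was 0.38 ± 0.33, and the difference between the cell types was 0.51 ± 0.46 (limma adjusted p = 0.993).

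Slides and probes bore on that value. The round spermatid difference of miR-34c-3p was 1.88 within slide 1, with 1 saline array, -0.06 within slide 2, with 1 array a group, and 0.92 within slide 3, with 1 cyclophosphamide array. Saline rats 15 and 17, the low arrays, lay on slides 1 and 3. The array carries 4 probes for this arm, of which 2 were well above background in none of their spots. The next brightest probe was at the floor on the arrays of saline rats 15 and 17 and gave a difference of 0.39, with 13 of 23 spots well above background in saline and 20 of 25 in cyclophosphamide round spermatids. Between spots of the brightest probe on an array the median SD was 0.12, against an SD of 0.77 between saline rats and 0.24 between cyclophosphamide rats. The 5p to 3p ratio of miR-34c differed by -0.63 between treatments in round spermatids (exact permutation p = 0.310).

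**Figure D4:**
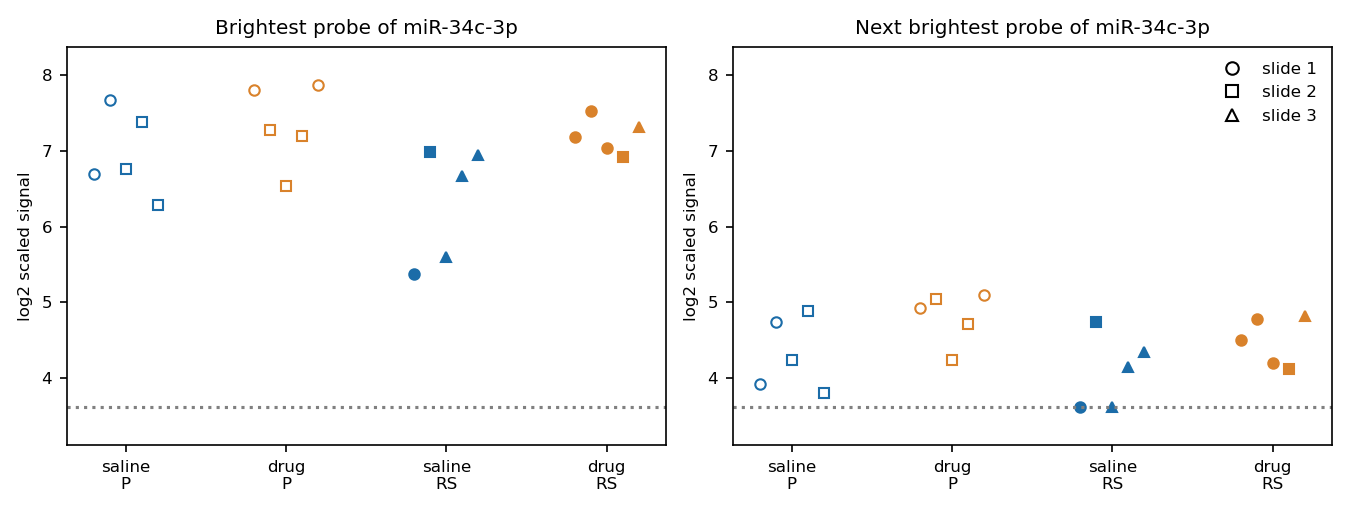
Log2 scaled signal (y axis) of the brightest probe of miR-34c-3p (left) and the next brightest (right) on each of 20 arrays by group (P, pachytene spermatocytes; RS, round spermatids; drug, cyclophosphamide), with the slide as the symbol, pachytene arrays open and the floor of 3.61 dotted. On both probes the lowest arrays are saline round spermatid rats 15 and 17, at 5.37 and 5.59 on the brightest probe and at the floor on the other.

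Other miRNAs that p53 is known to induce or process were read as a list of 18, of which 11 were tested. None was called for cyclophosphamide in either cell type, with differences from -0.30 to 0.07 in pachytene spermatocytes and from -0.29 to 0.40 in round spermatids. Between stages 6 were called higher and 1 lower in saline rats, and 8 higher and 1 lower in cyclophosphamide rats, where 26.3% and 21.7%, and 30.4% and 22.6%, of all tested miRNAs were. The list medians were 0.37 and 0.49 against 0.02 and 0.06 over all 217, but -0.83 and -0.17 with spike-in scaling. The member called lower was miR-107-3p (-0.79 ± 0.11, limma adjusted p = 4.83e-06, in saline rats). The highest were miR-145-5p (1.88 ± 0.32, limma adjusted p = 4.87e-05) and miR-143-3p (1.81 ± 0.22, limma adjusted p = 1.37e-06), which also stand in the smooth muscle and mesenchymal marker list.

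Markers of other cells moved between the stages as well, to be read against the 26.3% called higher and 21.7% called lower of all tested miRNAs in saline rats and the 30.4% and 22.6% in cyclophosphamide rats. Of 7 tested endothelial, muscle and mesenchymal markers, 5 were called higher in round spermatids in each treatment, and none was called lower in saline rats and 1 in cyclophosphamide rats. Both endothelial members, named after their values were seen, lay on the lower side: miR-126a-3p differed by -0.73 ± 0.30 (limma adjusted p = 0.0560) in saline and -0.83 ± 0.30 (limma adjusted p = 0.0280) in cyclophosphamide rats, and miR-126a-5p by -0.37 and -0.08, neither called, with detection on 1 saline and 0 cyclophosphamide round spermatid arrays. The list's summed level on the log2 scale ran from 9.53 to 10.56 in saline pachytene, 9.23 to 10.01 in cyclophosphamide pachytene, 11.25 to 11.83 in saline round spermatid and 10.97 to 11.91 in cyclophosphamide round spermatid arrays. The muscle miRNA miR-133a-3p was not detected in either pachytene group and miR-1-3p in neither cyclophosphamide group. Of 3 tested blood markers 1 was called higher in saline rats and 2 in cyclophosphamide rats. Of the red cell miRNAs, miR-144-3p was detected on no array and miR-451-5p on 1, of saline round spermatids. The blood list had a summed level of 6.90 to 7.19 in saline pachytene and 7.50 to 7.93 in saline round spermatid arrays. The median of the blood list turned to -0.71 in saline rats with spike-in scaling, while that of the endothelial, muscle and mesenchymal list was above 0 under all 5 scalings (0.47 to 1.58 in saline rats). Of the 3 spermatogonial miRNAs, 3 were called lower in saline rats and 2 in cyclophosphamide rats, with a summed level of 9.45 to 9.61 in saline pachytene and 9.06 to 9.30 in saline round spermatid arrays. Of 3 tested Sertoli and gonadal miRNAs, 1 was called lower and 1 higher in each treatment, miR-202-3p (-1.77 and -1.55) and miR-132-3p (0.33 and 0.52), with list medians of 0.02 and 0.41. Of 15 X-linked testis-enriched miRNAs, between 11 and 14 were detected on all arrays of a group, and 8 of the 14 tested were called lower in round spermatids in each treatment. None of the tested markers was called for cyclophosphamide. The part of other cells in the stage differences of the miR-34 and miR-449 arms was not tested.

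The tested miRNAs outside the 7 members whose log2 signal ran closest to miR-34c-5p and miR-34a-5p over the 20 arrays were listed by Pearson's r, as a description, since the arrays share slides and scaling and fall into 2 cell types. For miR-34c-5p they were miR-16-5p (r = 0.975), miR-3580-3p (0.969) and miR-15b-5p (0.953), and r within groups was 0.964, 0.955 and 0.953. For miR-34a-5p they were miR-129-2-3p (0.981), miR-107-3p (0.978) and miR-204-5p (0.969), with 0.779, 0.821 and 0.778 within groups. The stage difference of the latter 3 in saline rats was -1.48, -0.79 and -0.94, each smaller than the -1.96 of miR-34a-5p.

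The remaining arms of these families on the array stayed outside the tests. In pachytene spermatocytes miR-34a-3p was detected on 4 of 5 arrays in each treatment, with means of 3.63 at the edge of the floor, and on no round spermatid array. The arm that completes the GGCAGUG seed group, miR-449c-5p, was detected on 2 saline pachytene arrays alone, and miR-449c-3p on none.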

How the data were processed

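The deposited scanner files hold a linear intensity for each spot, from which Agilent Feature Extraction (version 11.5.1.1, per the submitters' processing notes) had subtracted background without scaling between arrays, per the file headers. For cyclophosphamide round spermatid rat 14 they hold 3 significant digits. The deposited value table of the series was not used. Processed signals were scaled to the 75th percentile of the 2176 spots that all arrays showed well above background, held at a floor of 12.2 and taken to log2. Control spots and outlier spots (379 to 635 per array) were left out, no spot was saturated, spots of a probe were averaged, and the brightest probe stood for its miRNA. limma 3.58.1 in R 4.3.3 fitted 4 group means over 217 of 677 miRNAs, with Benjamini-Hochberg adjustment, and was tested on simulated data. Between 18.9% and 31.4% of spots were well above background, and 5 arrays per group limit the precision. Members and lists were chosen with earlier results of these data known. Named miRNAs are the 7 members, the 3 other tested miRNAs closest by r to miR-34c-5p and to miR-34a-5p, and at most 3 called members of a list. Named outside that rule are the endothelial list members, muscle and red cell list members for their detection, and the untested arms of these families. Alternatives covered scaling, background, floor, filter, probes, slide, scan date, replicate block, weights and left-out arrays.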

Additional observations from a re-analysis of the deposited data

Results flagged for a closer look

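Arrays far from the others were sought in 26 of the 28 combinations of member and group, those whose arrays differed. In 2 of them the lowest array stood apart, where chance alone gives about 1 in 20. For miR-34b-3p in saline round spermatids, rat 25 had a signal of 8.40 and the nearest array 8.79, a gap of 0.745 of the group's range. For miR-449a-3p in saline pachytene spermatocytes, rat 25 had a signal of 4.05 and the nearest array 4.67, a gap of 0.764 of the range.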

How the results depend on the processing

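Counts of called members in 5 comparisons, the count of ratios that passed and every member's difference were recomputed under the alternatives, changing 1 choice at a time, except that normexp also replaced the processed by the median spot signal, as no mean signal is listed here, and added an offset of 50. The deposited value table could not be used as planned, since its member rows carry names that match no array feature name, and quantile normalization gives some of the brightest arms 1 value on all arrays and no difference. Other bright arms take few values under quantile normalization, so their SE there are not like those of the other scalings.

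With leave-one-out, the called members were 3 or 4 in saline and 4 in cyclophosphamide stage comparisons. Called members in saline rats were 3, but 6 with spike-in scaling and 1 with normexp, and 2 to 4 under the other alternatives. In cyclophosphamide rats they were 4, but 2 without scaling, and 3 or 4 under the others. No alternative called a member for the drug, though within slide 2, with 1 round spermatid array a treatment, 23 other miRNAs were called. The 12 ratios that passed were 12 in each of 4 other settings of background, floor and probes. Uncalled values within 1 SE of 0 were given no direction. Other signs changed as follows. In saline rats the stage difference of miR-34b-5p was -0.61, of miR-34c-5p -0.77 and of miR-34b-3p -1.07 with spike-in scaling. Without scaling miR-34c-5p was -0.00064 and miR-34b-3p -0.30, and with scaling over all spots miR-34b-3p was -0.066. For miR-449a-3p normexp gave 0.16, and for miR-34c-3p slide 2 alone gave 0.17. In round spermatids the drug difference within slide 1 was -0.076 for miR-34b-5p, -0.075 for miR-34c-5p and -0.18 for miR-449a-5p, and within slide 2 -0.057 for miR-34c-3p, whose difference between cell types was -0.25 there. The cause was not tested, except that spike-in scaling moved the median of all tested miRNAs to -1.03 in saline rats.

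Rat numbers recur across groups. Deviations of same-numbered arrays from their group means correlated at 0.07, 0.19 and -0.30 between the cell types of saline rats 16, 25 and 28, at 0.12 for cyclophosphamide rat 15, and at 0.61, -0.0036 and 0.34 between treatments for round spermatid rats 15, 16 and 25. These values varied in sign and size, and the main fit did not pair arrays by number. The round spermatid arrays numbered 15, with 0.61, share slide 1. Arrays of opposite treatments cannot come from 1 rat, and what an equal number marks there was not tested. With the number as a replicate block, 3 and 4 members were called between stages (104 and 115 tested miRNAs without it, 108 and 116 with it), miR-34a-5p differing by -1.95 and -1.91, and 0 for the drug. Signal over background limits miR-449a-3p and the fainter probes of miR-34c-3p.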
